A study of Mus musculus with 28 samples.

Results

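Integrins are cell-surface receptors made of 1 alpha and 1 beta subunit, and laminins are basement-membrane proteins made of 1 alpha, 1 beta and 1 gamma chain. The genes of both families were taken by symbol (Itga and Itgb genes and Lama, Lamb and Lamc genes), which found 37 of the 56748 gene identifiers counted: 18 alpha and 8 beta subunits of integrins, and 5 alpha, 3 beta and 3 gamma chains of laminin. No measured value entered that choice. The counts are those of 28 libraries of total RNA depleted of ribosomal RNA, made from HC11 and 4T1 mouse cells. HC11 is labelled an untransformed mammary epithelial line and is a common model of lactogenic differentiation, and 4T1 is labelled a mammary cancer line. There were 10 HC11 libraries treated with DOX, 10 HC11 libraries treated with DOX and DIP together, and 8 4T1 libraries treated with DOX, so that every library carried DOX. The labels do not spell out DOX or DIP and give no dose, time or vector; the lactogenic mix of dexamethasone, insulin and prolactin is commonly abbreviated DIP for HC11.

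Laminin chains assemble inside the cell into trimers that are deposited in the basement membrane, where they bind integrins, dystroglycan and nidogens. In the mammary gland, integrins that contain the beta 1 subunit and bind laminin are known to be needed, with prolactin, for the differentiation of the secretory epithelium, while alpha 6 beta 4 integrin anchors epithelial cells through hemidesmosomes to a laminin trimer that holds the chains encoded by Lama3 and Lamb3. Other integrins bind collagens, or proteins with the tripeptide sequence arginine, glycine and aspartate, or, in leukocytes, other cells.

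Libraries held 134117581 to 222065843 counts, so a gene with 0 counts could be present at up to 0.0135 to 0.0224 CPM (counts scaled to library size), the level of 3 counts, which covers counting error only. The labels name no cultures, so p-values measure only the spread between libraries, which may be technical, and each cell line is a single line. Markers of mammary epithelium (Epcam, Cdh1, Krt8, Krt18, Krt5, Krt14 and Trp63) summed to 3464 to 8087 CPM in HC11 DOX, 439 to 2310 CPM with DIP and 2132 to 3046 CPM in 4T1. With DIP, Krt5, Krt14 and Cdh1 were lower (log2 fold changes -2.68, -2.11 and -0.56) and Krt18 was higher (1.03). Epcam (0.04), Krt8 (-0.17) and Trp63 (-0.10) did not pass. In 4T1 against HC11 DOX, the log2 fold changes of the luminal genes were 2.92 (Krt8) and 5.85 (Krt18), those of the basal genes -6.65 (Krt5), -3.01 (Krt14) and -6.06 (Trp63), that of Epcam -1.41 and that of Cdh1, which did not pass, 0.09. HC11 DOX + DIP libraries 8 and 10 (numbers are names only) stood apart from the other 8: of the 22 members with a mean of at least 5 CPM in a group, which are described in full, both libraries were below every other DIP library for 14 and above for 1. That count was made for these members only, so it does not set them apart from other genes. Because DIP libraries 8 and 10 stood apart, each count of calls is also given without these libraries. Both were singled out by values in these same data, those of the members among them. Fold changes, p-values and calls without them thus describe the other 8 and are not independent tests. Counts for 4T1 are also given without 4T1 libraries 1 and 2, which held the most signal of HC11-typical genes in an earlier account of these data. For members higher in HC11, such as Itgb8 and Lama4, a larger difference without them follows from that choice and is no separate support. The 2 comparisons share the HC11 DOX libraries, so their values for a gene are not independent.

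With DIP, integrin genes changed in both directions: Itga10, Itgb8, Itgb7, Itgb2 and Itgb5 rose, and Itgb3, Itga2, Itga3, Itgb6, Itgav and 3 genes of low level fell. Among laminin chains, Lamc1 and Lamb1 fell and Lama2, at a low level, rose. By the quasi-likelihood test of edgeR, with p-values adjusted over all genes by the Benjamini-Hochberg method and calls made at an adjusted p under 0.05, 6 of the 32 members tested were higher with DIP, 11 were lower and 15 did not pass. Over all 23829 genes tested, 24.5% were called higher and 21.0% lower. Values after ± are standard errors (SE) of log2 fold changes throughout. The members' median log2 fold change was -0.25, beside 0.06 for all genes tested. Every DIP library was above every DOX library for 1 member, Itgb5 (4.76% of all genes tested), and below for 2, Itgb3 and Itgae (6.66% of all genes). In bulk RNA, fewer cells that express a gene and less of its RNA per cell cannot be told apart. Without DIP libraries 8 and 10, 8 members were higher and 11 lower of 32 (median -0.07), and the shares over all genes were 27.0% and 25.4%. At least 2-fold changes were called higher with DIP for 5 members (10.7% of all genes tested) and lower for 8 (9.53%). Without those libraries they were called higher for 4 members (11.7% of all genes) and lower for 6 (9.96%). Lamc3, Itga4, Itgam, Itga9 and Lama1 had too few counts to be tested.

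Between the lines, both families again held differences in both directions. Itga2, Itgb7, Itgb2, Itga7, Lamb1, Itga3, Itgb3, Lamc1, Lama5 and Itgb5 were higher in 4T1. Lama4, Itgb8, Itga10, Itgb4, Lamb3, Lama3, Lamb2 and Itgb6 were lower, along with 6 genes of low level. Of 30 members tested, 11 were higher in 4T1, 14 lower and 5 did not pass, while 34.3% of all 23875 genes tested were called higher and 35.6% lower. The members' median log2 fold change was -0.26, beside -0.01 for all genes. The groups did not overlap, with 4T1 higher, for 7 members (19.5% of all genes tested), and with 4T1 lower for 6 (17.5%). Without 4T1 libraries 1 and 2, 11 members were higher and 15 lower of 32 tested, and the shares over all genes were 32.4% and 34.0%. At least 2-fold changes were called higher in 4T1 for 7 members (12.6% of all genes tested) and lower for 10 (20.1%). Without those libraries they were called higher for 7 members (12.3% of all genes) and lower for 12 (20.6%). With all libraries, Itgal and Lama2 were not tested in this comparison, nor were the 5 genes untested with DIP.

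**Figure D1:**
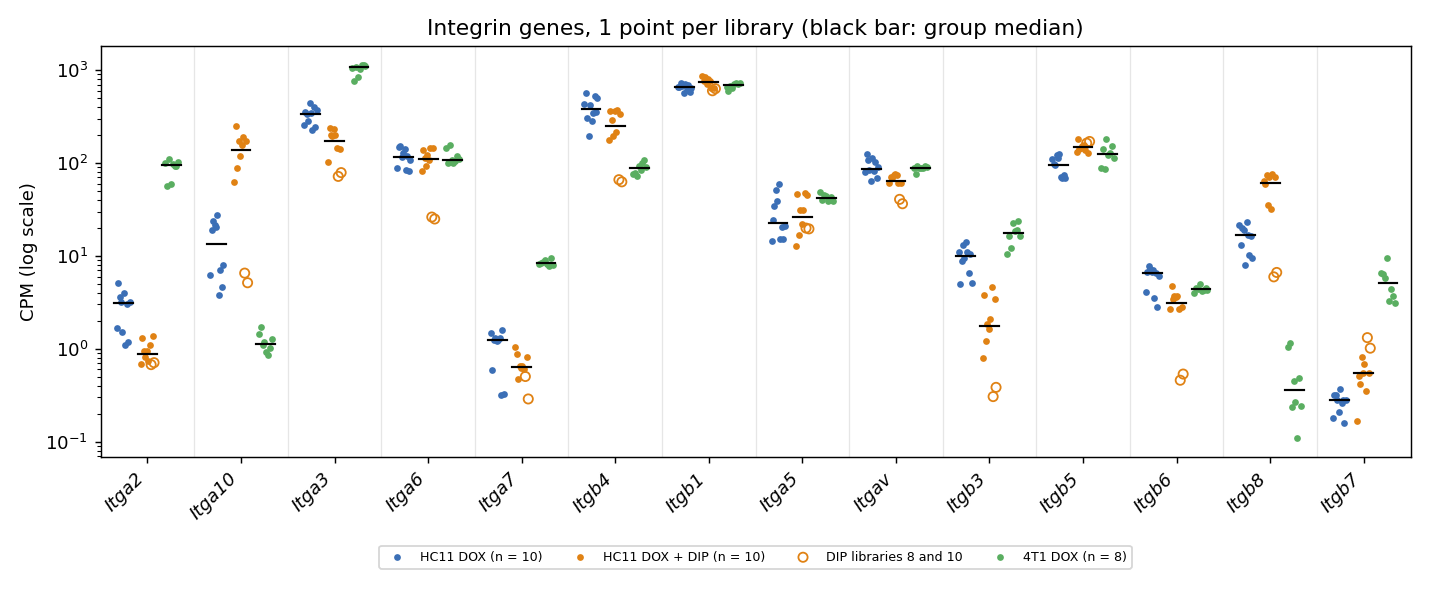
CPM (log axis) of the 14 integrin genes with a mean of at least 5 CPM in a group, 1 point per library, with a black bar at each group's median and open circles for DIP libraries 8 and 10. Itgb1 lies between 573 and 860 CPM in every library, while Itga10 and Itgb8 lie highest in 8 of the 10 DIP libraries and lowest in 4T1.

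Per kilobase of exon, which allows levels of different genes to be compared, Itgb1, the beta subunit shared by most laminin and collagen receptors, had the highest median of all members in both HC11 groups, 162 CPM per kilobase with DOX and 181 with DIP. In 4T1 the highest was Itga3 at 188, followed by Itgb1 at 169. Next in HC11 DOX came Itga3 (59.4), Itgb4 (55.0) and Lamb3 (49.3 CPM per kilobase); by the longest transcript Lamb3 (67.0) was above Itgb4 (62.1). With DIP the second was Lamb3, at 87.5 CPM per kilobase. Itgb1 itself spanned 573 to 726 CPM (median 662) with DOX, 599.7 to 859.7 CPM (median 738) with DIP and 595 to 725 CPM (median 689) in 4T1. The 3 groups overlapped. The log2 fold change of Itgb1 with DIP was 0.18 ± 0.08 (adjusted p = 0.0812), which did not pass, but without DIP libraries 8 and 10 it was 0.22 ± 0.08 (adjusted p = 0.0198) and was called higher; leaving out library 8 alone gave an adjusted p of 0.0416. In 4T1 it was 0.04 ± 0.07 (adjusted p = 0.608).

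Promoter sequence is shown for Itgb1, whose levels overlapped in all groups, and for 3 members that rose with DIP. The RefSeq table of the GRCm38.p6 build, which is not the GRCm39 build of the counts, held windows from 250 bases before to 50 after the start for 23 of the 37 members, 26 windows in all. The 160 bases before the start are shown for Itgb1 (chr8:128685494-128685653, plus strand), for Itgb5 (chr16:33829505-33829664, plus strand), the member for which every DIP library lay above every DOX library, and for Itga10 (chr3:96645424-96645583, plus strand) and Itgb8 (chr12:119238277-119238436, minus strand), which had the largest rises with DIP among members described in full. Capitals mark GC boxes (GGGCGG on either strand).
Itgb1: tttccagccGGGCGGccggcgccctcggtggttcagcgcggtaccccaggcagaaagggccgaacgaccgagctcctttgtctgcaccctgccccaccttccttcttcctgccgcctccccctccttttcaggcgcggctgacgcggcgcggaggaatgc
Itgb5: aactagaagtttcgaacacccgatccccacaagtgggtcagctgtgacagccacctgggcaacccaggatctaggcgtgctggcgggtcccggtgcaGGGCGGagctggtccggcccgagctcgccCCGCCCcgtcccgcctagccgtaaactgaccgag
Itga10: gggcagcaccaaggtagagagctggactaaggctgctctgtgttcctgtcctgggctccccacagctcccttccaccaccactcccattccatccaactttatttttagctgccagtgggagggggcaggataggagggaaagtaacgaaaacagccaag
Itgb8: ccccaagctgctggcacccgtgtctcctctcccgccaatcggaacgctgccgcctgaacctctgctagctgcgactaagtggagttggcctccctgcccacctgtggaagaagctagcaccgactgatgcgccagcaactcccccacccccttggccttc
The stretch of Itgb1 holds 1 GC box and that of Itgb5 holds 2, and those of Itga10 and Itgb8 hold 0. A GC box was found in 12 of the 26 member windows (46.2%), beside 35.7% of the 32851 windows in the table. The AP-1 motif TGACTCA on either strand was in 2 windows (7.69%), those of Itgax and Itga9, beside 5.20% of all. The palindromic glucocorticoid response element, by exact match, was in 0 of 26 member windows and in 3 of 32851. These are matches of letters only.

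Of the collagen receptors, Itga10 and Itga2 moved oppositely in each comparison. Itga10 (ENSMUSG00000090210), the alpha subunit of a collagen receptor known from cartilage, spanned 3.84 to 27.3 CPM (median 13.5) with DOX, 5.14 to 249 CPM (median 138) with DIP and 0.864 to 1.73 CPM (median 1.13) in 4T1. DIP libraries 8 and 10, at 6.53 and 5.14 CPM, lay within the DOX range, and the other 8 lay above it, from 61.7 CPM up. The log2 fold change with DIP was 3.13 ± 0.58 (adjusted p = 1.55e-04), or 3.43 ± 0.40 (adjusted p = 6.13e-07) without those 2 libraries. Between the lines it was -3.61 ± 0.40 (adjusted p = 1.29e-07), with every 4T1 library below every HC11 DOX library. Itga10 shares 33.5% of its exon bases with the gene model Gm42957 on the same strand, which was also higher with DIP (log2 fold change 2.07) and lower in 4T1 (-0.48), so the assignment of its reads is uncertain.

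Itga2, the alpha subunit of the main epithelial collagen receptor, spanned 1.10 to 5.08 CPM (median 3.12) with DOX, 0.675 to 1.38 CPM (median 0.874) with DIP and 56.3 to 111 CPM (median 94.8) in 4T1. 4T1 libraries were all above HC11 libraries, and 4T1 libraries 2 and 4, at 56.3 and 58.9 CPM, were below the other 6. Its log2 fold change in 4T1 was 4.99 ± 0.30 (adjusted p = 1.27e-11). With DIP it was -1.55 ± 0.27 (adjusted p = 7.05e-05), and the DOX and DIP groups overlapped. Itga1 and Itga11, the alpha subunits of other collagen receptors, had group medians of at most 1.55 and 0.140 CPM. Itga11 was lower with DIP (-1.57 ± 0.36, adjusted p = 0.00119) and in 4T1 (-2.07 ± 0.31, adjusted p = 6.76e-06), while Itga1 passed in neither comparison; without HC11 DOX library 5 its adjusted p in 4T1 was 0.0291.

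Among the laminin receptors Itga3, which with beta 1 forms the receptor for laminins with the alpha 3 and alpha 5 chains, fell with DIP and was higher in 4T1. It spanned 226 to 445 CPM (median 339) with DOX, 71.8 to 239.7 CPM (median 171) with DIP and 763 to 1147 CPM (median 1072) in 4T1. 4T1 libraries lay above all HC11 libraries, DOX and DIP groups overlapped slightly, and DIP libraries 8 and 10 were lowest at 71.8 and 78.8 CPM. The log2 fold changes were -1.01 ± 0.21 (adjusted p = 4.41e-04) with DIP and 1.63 ± 0.13 (adjusted p = 1.02e-09) in 4T1.

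Itga6 and Itgb4 encode the 2 subunits of the hemidesmosomal laminin receptor, and Itga6 also pairs with beta 1. Itga6 spanned 81.1 to 153 CPM (median 117) with DOX, 25.0 to 146 CPM (median 111) with DIP and 100.3 to 156 CPM (median 109) in 4T1, and it passed in neither comparison (-0.20 ± 0.27, adjusted p = 0.573 with DIP and -0.01 ± 0.14, adjusted p = 0.958 in 4T1). Only DIP libraries 8 and 10, at 26.2 and 25.0 CPM, fell outside the range of the DOX group on the low side. Itgb4, whose long cytoplasmic tail binds plectin, spanned 197 to 563 CPM (median 386) with DOX, 62.7 to 368 CPM (median 252) with DIP and 72.5 to 109 CPM (median 87.7) in 4T1. All 4T1 libraries were below all HC11 DOX libraries, with a log2 fold change of -2.17 ± 0.17 (adjusted p = 5.18e-10). With DIP it was -0.67 ± 0.29 (adjusted p = 0.0650) and did not pass; it passed without DOX library 4 or without DIP library 2, 5, 7 or 9 (lowest adjusted p 0.0404), and without libraries 8 and 10 together it was -0.43 ± 0.20 (adjusted p = 0.0731).

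Itga7, the alpha subunit of a laminin receptor known from muscle, was low in HC11. Its range was 0.316 to 1.59 CPM (median 1.25) with DOX, 0.288 to 1.04 CPM (median 0.636) with DIP and 7.82 to 9.57 CPM (median 8.33) in 4T1, with 4T1 above all HC11 libraries. The log2 fold change in 4T1 was 2.97 ± 0.28 (adjusted p = 7.95e-09). With DIP it was -0.68 ± 0.29 (adjusted p = 0.0606), which did not pass, and it passed without DOX library 2, 8 or 10 or DIP library 1 (lowest adjusted p 0.0179).

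The alpha v integrins and their relatives bind proteins such as vitronectin, fibronectin and the latent form of TGF-beta through the arginine, glycine and aspartate sequence. Of their beta subunits, Itgb5 and Itgb8 rose with DIP, and Itgb3 and Itgb6 fell. Itgav, the alpha subunit common to several, spanned 64.4 to 124 CPM (median 87.1) with DOX, 36.4 to 77.0 CPM (median 64.4) with DIP and 76.0 to 93.7 CPM (median 88.0) in 4T1. It fell with DIP (-0.54 ± 0.15, adjusted p = 0.00450) and did not pass in 4T1 (-0.08 ± 0.11, adjusted p = 0.515). All groups overlapped. Itgb3, the beta subunit of the vitronectin receptor also found on platelets and osteoclasts, spanned 4.99 to 14.2 CPM (median 10.03) with DOX, 0.306 to 4.57 CPM (median 1.74) with DIP and 10.5 to 23.8 CPM (median 17.5) in 4T1. Every DIP library was below every DOX library, and the log2 fold change was -2.22 ± 0.41 (adjusted p = 1.24e-04). In 4T1 Itgb3 was higher, at 0.84 ± 0.21 (adjusted p = 0.00117), with overlap.

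Itgb5, another partner of alpha v, spanned 69.1 to 124 CPM (median 96.4) with DOX, 128 to 181 CPM (median 150.4) with DIP and 86.5 to 179.6 CPM (median 126) in 4T1. Every DIP library, 8 and 10 included, was above every DOX library, with a log2 fold change of 0.69 ± 0.13 (adjusted p = 1.46e-04). The 4T1 and DOX groups overlapped, and the call of 0.39 ± 0.16 (adjusted p = 0.0355) was lost without DOX library 7, 8, 9 or 10 or 4T1 library 4 or 7 (highest adjusted p 0.0824).

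Itgb6 and Itgb8 encode the beta subunits of the alpha v integrins best known for activating latent TGF-beta. Itgb8 spanned 7.92 to 22.9 CPM (median 16.6) with DOX, 5.95 to 77.0 CPM (median 61.6) with DIP and 0.109 to 1.15 CPM (median 0.359) in 4T1. DIP libraries 8 and 10, at 5.95 and 6.63 CPM, lay below the DOX range, and the other 8, from 31.9 CPM up, lay above it. The log2 fold change with DIP was 1.68 ± 0.38 (adjusted p = 0.00119), or 1.95 ± 0.23 (adjusted p = 5.45e-07) without those libraries. 4T1 libraries were all below HC11 DOX libraries, with a log2 fold change of -5.01 ± 0.43 (adjusted p = 2.40e-09); 4T1 libraries 1 and 2 were the highest at 1.05 and 1.15 CPM, and without them it was -5.72 ± 0.37 (adjusted p = 2.41e-10).

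Itgb6, a subunit typical of epithelia, spanned 2.83 to 7.76 CPM (median 6.60) with DOX, 0.458 to 4.70 CPM (median 3.13) with DIP and 4.03 to 5.02 CPM (median 4.38) in 4T1. It was lower with DIP (-1.03 ± 0.33, adjusted p = 0.0140) with overlapping groups, where libraries 8 and 10 were lowest at 0.458 and 0.534 CPM. The 4T1 call (-0.43 ± 0.17, adjusted p = 0.0309) was lost without 4T1 libraries 1 and 2 (-0.39 ± 0.19, adjusted p = 0.0858), and without DOX library 3, 4 or 6 or 4T1 library 1, 5 or 6 (highest adjusted p 0.0630).

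Itga5, the alpha subunit of the classical fibronectin receptor, spanned 14.5 to 59.3 CPM (median 22.6) with DOX, 12.9 to 47.2 CPM (median 26.5) with DIP and 38.8 to 49.0 CPM (median 42.0) in 4T1. The groups overlapped and it passed in neither comparison (0.00 ± 0.30, adjusted p = 0.992 with DIP and 0.49 ± 0.25, adjusted p = 0.0904 in 4T1), except in 4T1 without DOX library 4 or 6 (lowest adjusted p 0.0143). Itga8, a further subunit that binds this sequence, had medians of at most 1.83 CPM. Its log2 fold change in 4T1 was -1.73 ± 0.63 (adjusted p = 0.0200), and without DOX library 1, the highest at 3.75 CPM, the adjusted p was 0.0616.

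Of the integrins known mainly from leukocytes and platelets, Itgb7, Itgb2 (at most 6.59 CPM, in 4T1) and Itga2b reached over 5 CPM in some libraries. Itgb7, the beta subunit that pairs with alpha 4 and alpha E, spanned 0.157 to 0.371 CPM (median 0.279) with DOX, 0.167 to 1.32 CPM (median 0.547) with DIP and 3.13 to 9.46 CPM (median 5.08) in 4T1, all 4T1 libraries being above HC11. It was called higher with DIP (1.28 ± 0.28, adjusted p = 8.28e-04), with libraries 8 and 10 above the other DIP libraries, and in 4T1 (4.30 ± 0.23, adjusted p = 2.21e-12). Itgb2, the beta subunit of the leukocyte integrins, had medians of 0.295 CPM with DOX, 1.12 with DIP and 2.48 in 4T1, and was called higher in both (1.97 ± 0.47, adjusted p = 0.00172 with DIP and 3.34 ± 0.39, adjusted p = 2.67e-07 in 4T1). DIP libraries 8 and 10, at 0.0764 and 0.180 CPM, were not above the DOX range of 0.0766 to 0.539 CPM, and the other 8, from 1.03 CPM up, were. Its partner genes Itgal, Itgam, Itgax and Itgad had medians of at most 0.100 CPM. Itgax was lower with DIP (-1.43 ± 0.44, adjusted p = 0.0116) and in 4T1 (-3.31 ± 0.52, adjusted p = 1.12e-05), and Itgad was lower in 4T1 (-1.39 ± 0.33, adjusted p = 8.58e-04). Itgax had too few counts to be tested in 4T1 without DOX library 1, 2, 4, 6, 7, 8, 9 or 10, so its call there was kept in 10 of 18 fits and had no value in 8. With DIP the value of Itgad was -0.62 ± 0.27 (adjusted p = 0.0675), which passed without DIP library 1 or 10 or DOX library 4 (lowest adjusted p 0.0159) and without DIP libraries 8 and 10 together (-0.72 ± 0.30, adjusted p = 0.0487).

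Itgae, the alpha E subunit of intraepithelial lymphocytes, spanned 0.434 to 0.685 CPM (median 0.583) with DOX and 0.120 to 0.424 CPM (median 0.210) with DIP without overlap, and was called lower with DIP (-1.27 ± 0.21, adjusted p = 4.70e-05) and in 4T1 (-0.48 ± 0.15, adjusted p = 0.00645). Itga2b, the platelet alpha subunit, had medians of 2.06 CPM with DOX, 2.87 with DIP and 0.664 in 4T1, and was called lower in 4T1 (-1.67 ± 0.34, adjusted p = 1.93e-04). With DIP it was 0.75 ± 0.38 (adjusted p = 0.110) and did not pass; libraries 8 and 10, at 10.5 and 6.56 CPM, were above every other HC11 library, and without them it was 0.19 ± 0.31 (adjusted p = 0.637). Itga4 and Itga9 were at 0 counts in 5 of 8 4T1 libraries each. The summed level of 7 leukocyte markers was 8.60 to 12.1 CPM with DOX, 10.2 to 27.4 CPM with DIP and 15.1 to 22.5 CPM in 4T1, mostly Csf1r and Cd68; Ptprc had medians of 0, 0 and 0.0232 CPM, and 5 of the 7 markers had a median under 1 CPM in each group. The summed megakaryocyte markers were 0.279 to 1.15, 1.18 to 3.29 and 0.0585 to 0.219 CPM. In HC11 these sums were mostly Gp1ba (means 0.487 CPM with DOX and 2.02 with DIP), which was higher with DIP (log2 fold change 2.07) and lower in 4T1 (-2.07). With DIP, Gp9 did not pass (0.18) and Pf4 had too few counts to be tested. The part of the leukocyte and megakaryocyte markers in these results was not tested.

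**Figure D2:**
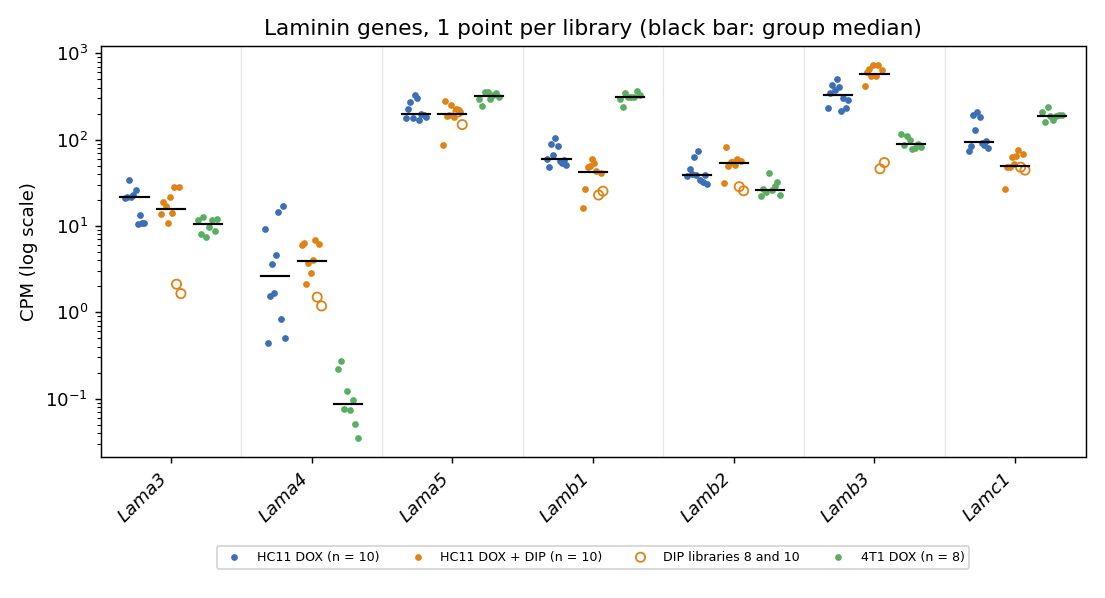
CPM (log axis) of 7 laminin genes with a mean of at least 5 CPM in a group, 1 point per library, with a black bar at each group's median and open circles for DIP libraries 8 and 10. Lamb1 lies higher in all 4T1 than in all HC11 DOX libraries, Lamb3 lies lower, and Lama4 is under 0.27 CPM in every 4T1 library.

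Among laminin alpha chains, Lama5 and Lama3 were the main ones, and neither passed with DIP. Lama5, the broadly expressed epithelial chain, spanned 171 to 326 CPM (median 196) with DOX, 87.3 to 279 CPM (median 200.5) with DIP and 247 to 358 CPM (median 319.5) in 4T1, with all groups overlapping. It was called higher in 4T1 (0.48 ± 0.14, adjusted p = 0.00380) and was -0.15 ± 0.18 (adjusted p = 0.508) with DIP. Lama3, the alpha chain of the hemidesmosomal trimer, spanned 10.6 to 34.0 CPM (median 21.5) with DOX, 1.65 to 28.5 CPM (median 15.6) with DIP and 7.43 to 12.7 CPM (median 10.6) in 4T1. DIP libraries 8 and 10, at 2.11 and 1.65 CPM, were below all other libraries, and the other DIP libraries lay within the DOX range. The log2 fold changes of Lama3 were -0.29 ± 0.39 (adjusted p = 0.580) with DIP and -0.94 ± 0.23 (adjusted p = 9.86e-04) in 4T1, the latter called lower.

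Lama4, the alpha chain known from endothelium and mesenchyme, spanned 0.438 to 16.9 CPM (median 2.64) with DOX, 1.18 to 6.79 CPM (median 3.89) with DIP and 0.0346 to 0.269 CPM (median 0.0858) in 4T1. HC11 DOX libraries 1, 7 and 9, at 9.33, 14.4 and 16.9 CPM, were above the other 7, and 4T1 libraries were below all HC11 DOX libraries. With DIP, libraries 1, 2, 7 and 9, at 6.10, 6.33, 6.79 and 6.25 CPM, were above the other 6, and libraries 8 and 10 were lowest, the latter at 1.18 CPM. HC11 libraries of the same number thus ran partly alike, also for Itga8, but the numbers follow the order of deposit, and the labels do not say whether such libraries share a culture or day. The log2 fold change in 4T1 was -5.53 ± 0.81 (adjusted p = 4.77e-06), or -6.15 ± 0.96 (adjusted p = 2.12e-05) without 4T1 libraries 1 and 2. With DIP it was -0.37 ± 0.58 (adjusted p = 0.637). Fibroblast markers summed to 32.5 to 96.3 CPM with DOX, 11.4 to 167 CPM with DIP and 9.31 to 15.5 CPM in 4T1, and endothelial markers to 3.29 to 5.23, 0.270 to 1.56 and 0.115 to 0.310 CPM. The fibroblast markers differed among themselves. In 4T1, Pdgfrb, Col1a1 and Col1a2 were lower (log2 fold changes -5.61, -4.51 and -2.64) and Pdgfra did not pass (-0.13). With DIP, Pdgfrb was called higher (1.24), and Pdgfra (0.33), Col1a1 (-0.52) and Col1a2 (-1.27) did not pass. The endothelial sums were mostly Pecam1 (medians 3.55, 0.909 and 0.235 CPM), which was lower in 4T1 (log2 fold change -4.19) and with DIP (-2.06), while Kdr had a median of 0 CPM in HC11 DOX and 4T1. The part of these markers in the difference was not tested. Lama2, the muscle and nerve chain, had medians of 0.0175 CPM with DOX and 0.110 with DIP and was called higher with DIP (2.19 ± 0.59, adjusted p = 0.00433). Lama1 was at 0 counts in 7 of 8 4T1 libraries.

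Of the beta chains, Lamb3 and Lamb1 differed in opposite directions between the lines. Lamb3, the beta chain of the hemidesmosomal trimer, spanned 216 to 509 CPM (median 326) with DOX, 45.9 to 740.0 CPM (median 578) with DIP and 77.9 to 116 CPM (median 88.2) in 4T1. All 4T1 libraries were below all HC11 DOX libraries (-1.88 ± 0.16, adjusted p = 3.59e-09). DIP libraries 8 and 10 had 45.9 and 54.2 CPM, below every DOX library, while the other 8 had 416 to 740 CPM. The log2 fold change with DIP was 0.59 ± 0.37 (adjusted p = 0.204) and did not pass. Without both libraries it was 0.88 ± 0.16 (adjusted p = 1.28e-04) and was called higher, and without library 8 alone the adjusted p was 0.0474. Since both were the lowest DIP libraries for Lamb3, leaving them out raises its value by construction, and that call is no separate support.

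Lamb1, the beta chain of most other trimers, was higher in 4T1 and fell with DIP. It spanned 47.6 to 104 CPM (median 59.0) with DOX, 16.1 to 60.2 CPM (median 42.2) with DIP and 236 to 364 CPM (median 312) in 4T1, where all libraries were above all HC11 DOX libraries. The log2 fold changes were 2.20 ± 0.15 (adjusted p = 9.90e-11) in 4T1 and -0.78 ± 0.22 (adjusted p = 0.00552) with DIP, called lower with overlapping groups. Lamb2, the beta chain typical of the neuromuscular and glomerular basement membranes, spanned 30.4 to 74.8 CPM (median 38.6) with DOX, 25.6 to 81.5 CPM (median 52.9) with DIP and 22.2 to 40.7 CPM (median 26.4) in 4T1, with overlap. It was called lower in 4T1 (-0.66 ± 0.17, adjusted p = 0.00202) and was 0.20 ± 0.21 (adjusted p = 0.446) with DIP.

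Lamc1, the gamma chain of most trimers, fell with DIP and was higher in 4T1. It spanned 74.1 to 208 CPM (median 93.8) with DOX, 26.5 to 76.1 CPM (median 50.1) with DIP and 162 to 238 CPM (median 190.0) in 4T1. The DOX group overlapped both others, and the log2 fold changes were -1.17 ± 0.22 (adjusted p = 1.71e-04) with DIP and 0.62 ± 0.21 (adjusted p = 0.0113) in 4T1.

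**Figure D3:**
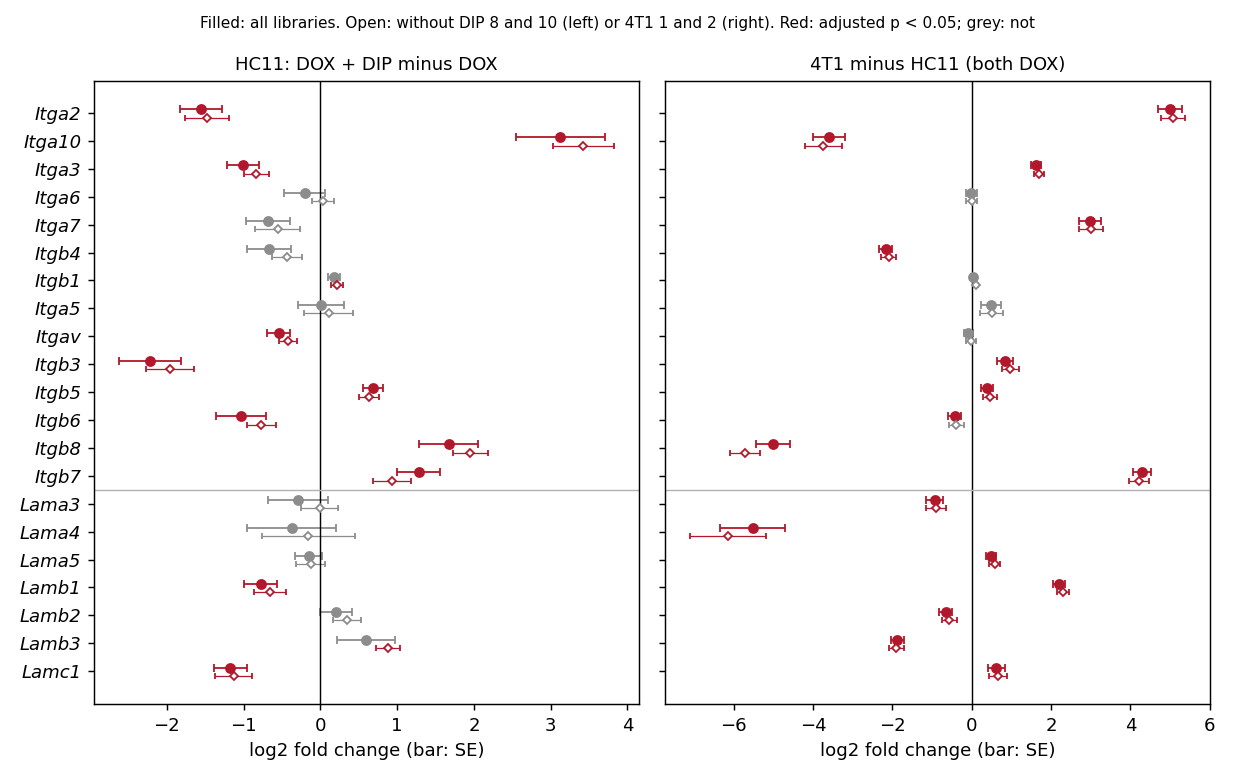
Log2 fold change with its standard error for 21 members described in full, with DIP in HC11 (left) and in 4T1 against HC11 DOX (right); filled points use all libraries, open points leave out DIP libraries 8 and 10 or 4T1 libraries 1 and 2, and red marks an adjusted p under 0.05. The open point of Lamb3 at 0.88 is red where the filled one at 0.59 is grey, and that of Itgb6 in 4T1 is grey.

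Ratios of subunits within a library, in CPM per kilobase, describe how the partners stood to each other; they were not tested. The median ratio of Lamb3 to Lamb1 was 7.26 with DOX, 19.3 with DIP and 0.426 in 4T1, so Lamb1 exceeded Lamb3 in 4T1 and not in HC11. Lama3 to Lama5 was 0.0817, 0.0846 and 0.0361. For the hemidesmosomal receptor, the median ratio of Itgb4 to Itga6 was 5.05 with DOX, 3.24 with DIP and 1.07 in 4T1. With the longest transcript as the length it was 2.73, 1.75 and 0.576, so whether Itgb4 exceeds Itga6 in 4T1 depends on the length used, and the order of the groups does not.

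Alternative partners also stood in different ratios in the 3 groups. Of the collagen-binding alpha subunits, the median ratio of Itga10 to Itga2 was 5.29 with DOX, 173 with DIP and 0.0159 in 4T1, with the assignment of Itga10 reads uncertain as given above. Of the beta subunits that pair with alpha v, Itgb8 to Itgb6 was 1.68, 10.2 and 0.0486, and Itgb3 to Itgb5 was 0.0591, 0.00696 and 0.0855. Itga3 to Itga6, the alpha subunits of the main laminin receptors, was 4.42, 2.85 and 13.7. With the longest transcript as the length, Itga3 to Itga6 was 2.48, 1.60 and 7.67, in the same order of groups.

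**Figure D4:**
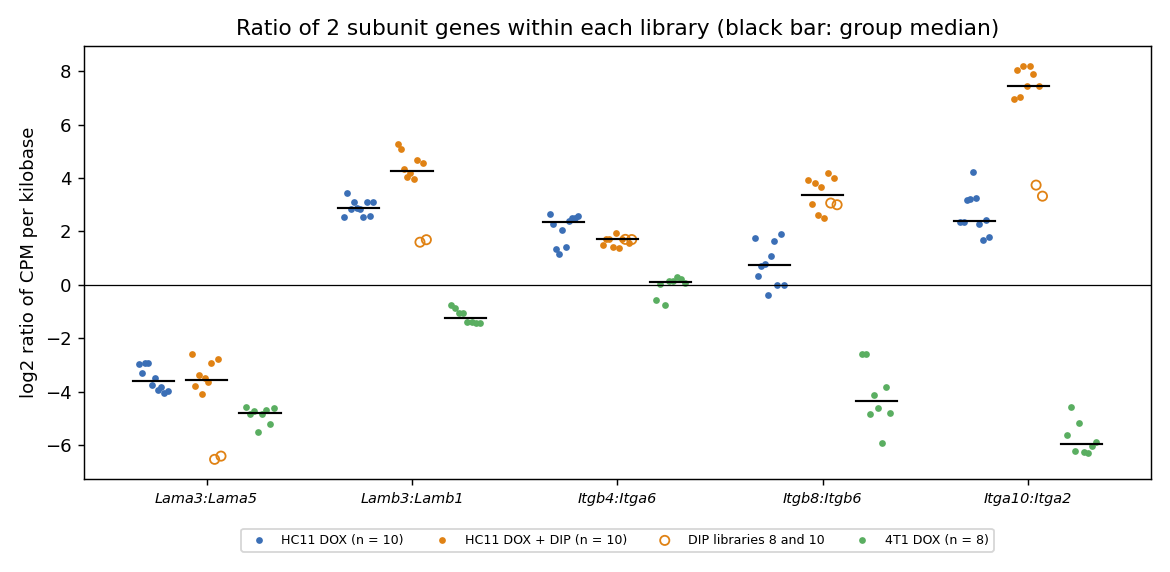
Log2 ratio of 2 subunit genes in CPM per kilobase within each library, with black bars at the group medians and open circles for DIP libraries 8 and 10. Lamb3:Lamb1 lies above 0 in all HC11 libraries and below 0 in all 4T1 libraries, and in libraries 8 and 10 Lamb3:Lamb1 and Itga10:Itga2 are the lowest of the DIP group.

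Genes that act with these families were described by lists chosen with earlier results known. Of the intracellular adhesion complex, which links integrins to actin, 10 of 26 tested genes rose with DIP and 5 fell (median log2 fold change 0.13, beside 0.06 for all genes). With all libraries, the shares of all genes called, against which the counts of this and the next 3 lists stand, were 24.5% higher and 21.0% lower with DIP and 34.3% and 35.6% in 4T1. Among the called genes with a mean of at least 5 CPM in a group, here and in the lists that follow, those with the largest changes are named. They were the kindlin gene Fermt1, which activates integrins in epithelia (-1.99, adjusted p = 5.93e-09), the tensin gene Tns3 (0.74, adjusted p = 0.00620) and the talin gene Tln2 (-0.72, adjusted p = 0.0332). In 4T1, 16 of 26 were higher and 5 lower (median 0.55, beside -0.01 for all genes), among them the parvin gene Parvb (7.05, adjusted p = 1.09e-11), the focal adhesion kinase relative Ptk2b (3.71, adjusted p = 2.33e-08) and Tln2 (-1.93, adjusted p = 4.90e-11). Without DIP libraries 8 and 10, and without 4T1 libraries 1 and 2, the counts were 11 and 5 with DIP and 16 and 5 in 4T1. For the fits without these libraries, in all 4 lists, the shares of all genes were 27.0% higher and 25.4% lower with DIP. In 4T1 they were 32.4% and 34.0%.

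Of 6 hemidesmosome components and other laminin receptors, 0 rose and 3 fell with DIP (median -0.53), including the transmembrane collagen gene Col17a1 (-1.34, adjusted p = 0.00380) and the plectin gene Plec (-0.70, adjusted p = 0.00675). In 4T1, 2 were higher and 4 lower (median -0.73): Col17a1 (-5.99, adjusted p = 1.44e-09) and the dystonin gene Dst (-1.31, adjusted p = 3.37e-07) were lower, and the laminin alpha 5 receptor gene Bcam was higher (1.59, adjusted p = 3.45e-07). Without DIP libraries 8 and 10, and without 4T1 libraries 1 and 2, the counts were 1 and 3 with DIP and 2 and 4 in 4T1.

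Basement membrane partners had 1 higher and 2 lower of 11 with DIP (median 0.16), the latter being Fras1, an epithelial basement membrane protein (-1.76, adjusted p = 0.00594), and the perlecan gene Hspg2 (-0.85, adjusted p = 0.0291). In 4T1, 4 of 13 were higher and 6 lower (median -0.32), with Fras1 (-6.66, adjusted p = 1.25e-08), the collagen gene Col4a5 (-2.61, adjusted p = 2.11e-09) and the agrin gene Agrn (-0.88, adjusted p = 6.18e-07) lower. Leaving out DIP libraries 8 and 10 raised the count higher with DIP from 1 to 4 and left 2 lower, and without 4T1 libraries 1 and 2 the counts in 4T1 were 3 and 6.

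Of 12 other integrin ligands, 2 rose and 5 fell with DIP (median 0.20). The osteopontin gene Spp1, a milk protein that binds alpha v integrins, rose (4.34, adjusted p = 1.25e-06), and the tenascin gene Tnc (-4.83, adjusted p = 1.15e-10) and the nephronectin gene Npnt, a ligand of alpha 8 beta 1 (-3.86, adjusted p = 8.26e-11), fell. In 4T1, 5 were higher and 7 lower (median -0.72): Vcam1, the ligand of alpha 4 integrins, was higher (9.14, adjusted p = 4.55e-15), and the periostin gene Postn (-5.05, adjusted p = 2.37e-10) and Tnc (-4.89, adjusted p = 3.46e-10) were lower. Without DIP libraries 8 and 10, and without 4T1 libraries 1 and 2, the counts were 4 and 5 with DIP and 5 and 5 in 4T1.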

How the data were processed

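The submitters' processing notes name fastp 0.23.2, featureCounts 2.0.1 and the mouse build GRCm39. Neither an aligner nor a strand setting is given in the sources used here. Each deposited file lists, for 1 library, the authors' whole-number counts of reads in each gene, with no normalisation found in the values. Symbols and exon lengths came from GENCODE vM21, which named 52125 identifiers and left 4623 without a name. By that annotation 11 members share exon bases with another gene, from 0.11% of them in Itga7 to 68.7% in Itgam (with Gm49368). Reads in bases shared with a gene on the same strand, as in Itga10 and Itgam, could not be told apart by any strand setting. Without a strand setting, the same holds for bases shared with antisense genes.

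Groups follow the cell line and treatment labels. No library was a copy of another: any 2 of a group differed with a chi-square of at least 16.3 per degree of freedom. Each comparison was fitted with edgeR 4.0.16 under R 4.3.3 on its own groups: filterByExpr, TMM, robust quasi-likelihood fit, and Benjamini-Hochberg adjustment over all genes tested, called at an adjusted p under 0.05. The procedure was tested on simulated data. The standard error is the size of the log2 fold change divided by the square root of F. For CPM, TMM factors were computed across the 28 libraries together; log2 CPM had a prior count of 2. Alternatives were DESeq2 1.42.0, limma 3.58.1 with voom, upper-quartile factors, no filter on low counts, a fit of all 3 groups, at least a 2-fold change, and libraries left out.

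The members, lists and tests were chosen with earlier results of these data known. By the rule for named genes, the 22 members with a mean of at least 5 CPM in a group are described in full, except for 1 that is counted but not reported here, and the other 15 by count, median and, where called, fold change. Of each list the 3 called genes with the largest change and that mean are named. Planned searches of protein sequence were not run, and protein sequences were not used here.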

Additional observations from a re-analysis of the deposited data

Results flagged for a closer look

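For the 22 members described in full, each group's lowest and highest library was compared with the rest by Dixon's ratio on log2 CPM, which flags about 1 in 20 groups by chance. Of 66 sets of libraries 3 had a library that stood apart. Itgav in 4T1 library 2 was at 76.0 CPM, with the next library at 87.4 and the highest at 93.7 CPM. Lamb1 in the same library was at 236 CPM, with the next at 297 and the highest at 364 CPM. Lamc1 in HC11 DOX + DIP library 1 was at 26.5 CPM, with the next at 44.3 and the highest at 76.1 CPM. Because DIP libraries 8 and 10 stand apart as a pair, this measure, which takes 1 library at a time, does not see them.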

How the results depend on the processing

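Under DESeq2, voom, upper-quartile factors, no filter, a fit of all 3 groups and the omission of DIP libraries 8 and 10 or 4T1 libraries 1 and 2, 6 to 8 members were higher and 11 to 14 lower with DIP, and 10 to 12 were higher and 12 to 17 lower in 4T1. The shares of all genes called ran from 15.0% to 27.0% higher and 12.5% to 25.4% lower with DIP, and from 21.7% to 35.0% and 26.7% to 37.1% in 4T1, the lowest being without the filter, where more genes were tested. Leaving out 1 library at a time gave 6 to 8 higher and 10 to 12 lower with DIP, and 10 to 12 higher and 12 to 15 lower in 4T1, beside 22.7% to 25.0%, 19.8% to 22.4%, 32.4% to 34.5% and 34.5% to 37.5% of all genes. Requiring at least a 2-fold change left 5 higher and 8 lower with DIP, and 7 higher and 10 lower in 4T1, beside 10.7%, 9.53%, 12.6% and 20.1% of all genes. None of the settings run turned the direction of a called member.

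Changes of call were followed gene by gene only for members described in full or called by edgeR with all libraries. The counts above can hold further members. Besides the changes on leaving libraries out, given with each gene, DESeq2 called Itga7, Itgb1 and Itgb4 with DIP, upper-quartile factors called Itgb1, the fit of all 3 groups called Itga7 and Itgb4, and voom called Itgb4. Voom and the fit without the filter each lost 1 call with DIP. In 4T1, Itgb6 was lost under voom (adjusted p = 0.0880), without the filter (0.0589) and in the fit of all 3 groups (0.214), Itga8 under voom (0.298) and Itgb5 under upper-quartile factors (0.0605), and Itga5 was called under voom (0.0176). The causes were not tested. Other scalings moved the median of all genes by at most 0.04 on the log2 scale. No paired analysis was made because the labels give no replicate numbers. If HC11 libraries of the DOX and DIP groups share a culture or day, the standard errors and p-values do not account for it.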

Other observations

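Itga8, an alpha subunit too low to be described in full, was unequal among the HC11 DOX libraries. Libraries 1, 7 and 9 held 3.75, 1.97 and 2.19 CPM, and the other 7 held 0.0979 to 0.765 CPM. These are also the 3 DOX libraries with the highest Lama4. The comparison was chosen after the values were seen, the labels give no feature that separates these libraries, and no test was made.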
